A study of Homo sapiens with 30 samples.

Results

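Nascent transcription of 8 human genes was followed through 30 libraries of precision run-on sequencing (PRO-seq), a method that tags the RNA still held by working polymerases in isolated nuclei or permeable cells and sequences only that RNA. The 8 genes were taken by name from the 58780 rows of the deposited gene counts. WDR77, CLNS1A, RIOK1 and COPRS encode partners of the arginine methyltransferase PRMT5, MAT2A and MTAP belong to methionine metabolism, and CDKN2A and CDKN2B lie beside MTAP on chromosome arm 9p. All libraries came from A549, a human lung adenocarcinoma cell line, and formed 15 groups of 2. Cells were untreated, or received dexamethasone (Dex, a synthetic glucocorticoid, 100 nM) for 15 min or 3 h, or Dex for 3 h together with GSK591 or MS023. Other cells received GSK591 (a PRMT5 inhibitor, 1 µM) or MS023 (which blocks the type I enzymes that make asymmetric dimethylarginine, 1 µM) for 2, 4 or 7 days, and after 7 days some were then given Dex for 15 min or 3 h. Every label, that of untreated cells included, names 0.01% DMSO, and untreated cells carry a single label of 15 min, so there is no vehicle group of 2, 4 or 7 days or of 3 h. Nothing says that the 2 libraries of a group came from separate cultures, so p-values measure the spread between these libraries, which may be technical.

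PRMT5 works as a complex with WDR77 (also called MEP50) and places symmetric dimethyl groups on arginines of spliceosomal Sm proteins, histones and other targets. CLNS1A (pICln), RIOK1 and COPRS are substrate adaptors that bind the complex in turn and bring it to Sm proteins, to ribosome-related and cytoplasmic proteins, or to histones. MAT2A makes S-adenosylmethionine, the methyl donor of these enzymes, and MTAP recycles methylthioadenosine, a by-product of polyamine synthesis that inhibits PRMT5 when it accumulates. CDKN2A and CDKN2B encode cell-cycle inhibitors of the INK4 family, and A549 is known for homozygous loss of CDKN2A.

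Total counts were 8441211 to 13069598 per library, of which 58.7% to 78.7% fell on mitochondrial genes. Values below are CPM, counts relative to library size, scaled by the trimmed mean of M-values (TMM), whose factors ran from 0.602 to 1.53. Replicates had a Pearson r of 0.923 to 0.983 over 11117 genes. All 9 fixed A549 markers passed the filter on low counts, with a summed level of 739 to 1430 CPM. Sums were at most 1.73 CPM for 4 leucocyte and 3.3 CPM for 4 fibroblast markers. They were at most 2.24 CPM for 3 endothelial and 6.15 CPM for 2 erythroid markers. Of these, 0 leucocyte, 1 fibroblast, 2 endothelial and 1 erythroid marker passed the filter as well. Among the A549 markers, EPCAM and CDH1 had medians of only 2.34 and 2.64 CPM, and the erythroid HBA1 had 2.76 CPM. In bulk libraries, fewer cells with a transcript and less of it per cell cannot be told apart. The mitochondrial share was 73.4% and 76% in untreated cells and 58.7% to 64.2% in the 6 libraries with 7 days of MS023. When total counts alone set the scale, the median of all genes at 7 days of MS023 moved up by 1.02 on the log2 scale, so every change is given relative to the TMM scale.

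Promoter windows of 4 genes are shown. MAT2A, CLNS1A and MTAP had the most calls, and COPRS is the gene on which the 2 countings described below differ in sign. Each window holds 250 bases before and 50 bases after a start of transcription (RefSeq, GRCh38.p14), written 5′ to 3′ on the gene's strand. The COPRS window lies wholly inside the annotated gene (chr17:31851864-31859337). Its letters therefore do not describe the sequence before the outermost annotated start of COPRS. Capitals mark matches, on either strand, to the GC box GGGCGG, the CCAAT box CCAAT or the ETS motif CCGGAAG. The windows are chr2:85538918-85539217 (plus strand) for MAT2A, chr11:77637745-77638044 (minus strand) for CLNS1A, chr9:21802386-21802685 (plus strand) for MTAP and chr17:31858913-31859212 (minus strand) for COPRS.
MAT2A: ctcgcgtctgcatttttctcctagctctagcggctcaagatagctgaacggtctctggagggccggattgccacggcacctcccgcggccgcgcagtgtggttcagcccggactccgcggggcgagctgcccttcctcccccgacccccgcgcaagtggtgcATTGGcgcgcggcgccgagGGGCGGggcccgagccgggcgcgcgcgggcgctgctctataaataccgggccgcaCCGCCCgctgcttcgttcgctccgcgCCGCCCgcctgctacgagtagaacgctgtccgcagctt
CLNS1A: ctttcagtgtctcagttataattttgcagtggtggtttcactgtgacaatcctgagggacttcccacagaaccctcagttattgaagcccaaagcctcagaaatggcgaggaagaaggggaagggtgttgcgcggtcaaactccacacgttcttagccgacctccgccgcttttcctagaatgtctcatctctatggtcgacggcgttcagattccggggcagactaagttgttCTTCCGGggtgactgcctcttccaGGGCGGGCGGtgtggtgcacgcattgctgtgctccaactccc
MTAP: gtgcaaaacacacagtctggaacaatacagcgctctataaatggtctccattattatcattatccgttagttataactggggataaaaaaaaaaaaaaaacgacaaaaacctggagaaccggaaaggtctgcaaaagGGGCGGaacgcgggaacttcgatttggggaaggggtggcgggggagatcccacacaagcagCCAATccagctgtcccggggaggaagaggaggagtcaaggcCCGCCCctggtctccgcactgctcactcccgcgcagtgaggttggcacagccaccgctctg
COPRS: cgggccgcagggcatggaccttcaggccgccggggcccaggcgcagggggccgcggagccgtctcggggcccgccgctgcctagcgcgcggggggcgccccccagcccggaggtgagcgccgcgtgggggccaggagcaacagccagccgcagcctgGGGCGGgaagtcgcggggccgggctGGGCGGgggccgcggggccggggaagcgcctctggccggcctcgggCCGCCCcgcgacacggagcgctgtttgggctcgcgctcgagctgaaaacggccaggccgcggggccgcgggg
MAT2A held 3 GC boxes and 1 CCAAT box, CLNS1A 2 overlapping GC boxes and 1 ETS motif, MTAP 2 GC boxes and 1 CCAAT box, and COPRS 3 GC boxes and no CCAAT box. Of all 35116 windows, 45% held a GC box and 34.6% a CCAAT box. COPRS, whose window lies inside the gene, had the highest share of G and C, 82.3%. The share was 71% for MAT2A, 54% for CLNS1A and 53% for MTAP. Neither the core of a glucocorticoid response element (ACANNNTGT, in 5.37% of windows), nor the CEBP-ATF element (TGATGNAA, 3.62%), nor the cyclic AMP element (TGACGTCA, 1.85%) was spelled out in these 4 windows. Also searched were the E-box CACGTG (7.26% of windows; 1 match, in WDR77), the NRF1 motif GCATGCGC (3.05%; 1 match, in CDKN2B) and the ETS motif CCGGAAG (10.3%; 2 matches in RIOK1 and 1 in CLNS1A). RIOK1 was the only member whose window held the glucocorticoid core, at 1 place. Its window (chr6:7389558-7389857) also lies wholly inside the annotated gene (chr6:7389496-7418037), so this match is not before the outermost annotated start. A match of letters is a description and not a site of binding.

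Per exonic length, MAT2A had the highest level of the 8 genes in the deposited counts. Its median over 30 libraries was 29.5 RPKM (CPM divided by the exonic length in kilobases), from 17.4 to 51.7. COPRS followed with 12.2 RPKM (6.8 to 27). CLNS1A and RIOK1 stood far lower, at 1.72 RPKM (0.937 to 2.22) and 1.51 RPKM (0.961 to 2.52), and their ranges overlapped. MTAP (0.797 RPKM, 0.447 to 1.04) and WDR77 (0.756 RPKM, 0.308 to 1.08) overlapped as well. CDKN2A and CDKN2B had a median of 0. PRMT5 itself had 1.95 RPKM (1.34 to 2.59). The 6 genes other than CDKN2A and CDKN2B passed the filter on low counts and were tested among 22919 genes. Raw counts per library were 689 to 3143 for MAT2A and 85 to 292 for COPRS, but 39 to 112 for CLNS1A, 32 to 109 for RIOK1, 57 to 209 for MTAP and 9 to 36 for WDR77. Nascent reads can also fall in introns, and the feature type counted is not given, so the order holds for this counting only. In the authors' deposited tables, which rest on another counting, mean normalised counts, not divided by length, were 1260 for MAT2A, 506 for MTAP, 170 for CLNS1A, 72 for COPRS and 62.5 for RIOK1.

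The 6 tested genes were compared between groups 38 times each, with the edgeR quasi-likelihood test and Benjamini-Hochberg adjustment over all genes, and a change was called at an adjusted p below 0.05. MAT2A gave 22 calls (11 higher, 11 lower), CLNS1A 7 (all lower), MTAP 4 (all lower), RIOK1 2 (both lower), COPRS 1 (higher) and WDR77 0. An inhibitor alone against untreated gave 4 calls in 36 tests (11.1%). The share of all genes called there was 5.64%, 17.2% and 13.2% at 2, 4 and 7 days of GSK591 and 10.4%, 14.2% and 13.6% of MS023. Dex with or without inhibitor against untreated gave 11 calls in 48 tests (22.9%). The share of all genes was 1.26% for Dex at 15 min, 10.5% at 3 h, 11.9% with GSK591 and 12% with MS023 for 3 h. After 7 days it was 15.5% and 26.8% for GSK591 then Dex for 15 min and 3 h, and 17.2% and 21.9% for MS023. Member shares, here and below, pool several comparisons of the same 6 genes, while the shares of all genes are of single comparisons. The 2 kinds of share are therefore not matched, and MAT2A alone gave 22 of the member calls.

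An inhibitor against none under Dex gave 7 calls in 36 tests (19.4%). The share of all genes was 0% and 0.196% for GSK591 and MS023 given together with Dex, where edgeR left 1306 and 3222 genes with an unadjusted p below 0.05 and DESeq2 also called 0 for GSK591. After 7 days it was 15.3% and 13.6% for GSK591 and 15.3% and 11.5% for MS023, at 15 min and 3 h of Dex. Dex after 7 days of inhibitor against that inhibitor gave 5 calls in 24 tests (20.8%), against 2.09% and 9.85% of all genes for GSK591 and 2.07% and 11.1% for MS023. GSK591 against MS023 gave 5 calls in 36 tests (13.9%), all in MAT2A. The share of all genes was 2.69%, 6.03% and 9.38% at 2, 4 and 7 days, 0.048% with 3 h of Dex, and 15.6% and 11.1% after 7 days with Dex for 15 min and 3 h. Change over time gave 4 calls in 24 tests (16.7%), against 3.39% and 8.29% for GSK591 (4 against 2 days, 7 against 4 days) and 4.91% and 9.04% for MS023. The difference of the Dex response after 7 days of inhibitor from that without gave 0 calls in 24 tests by edgeR and 0 by DESeq2, with 3 at an unadjusted p below 0.05. There the share of all genes was 0.00436% at 15 min and 0.223% at 3 h, for either inhibitor.

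**Figure D1:**
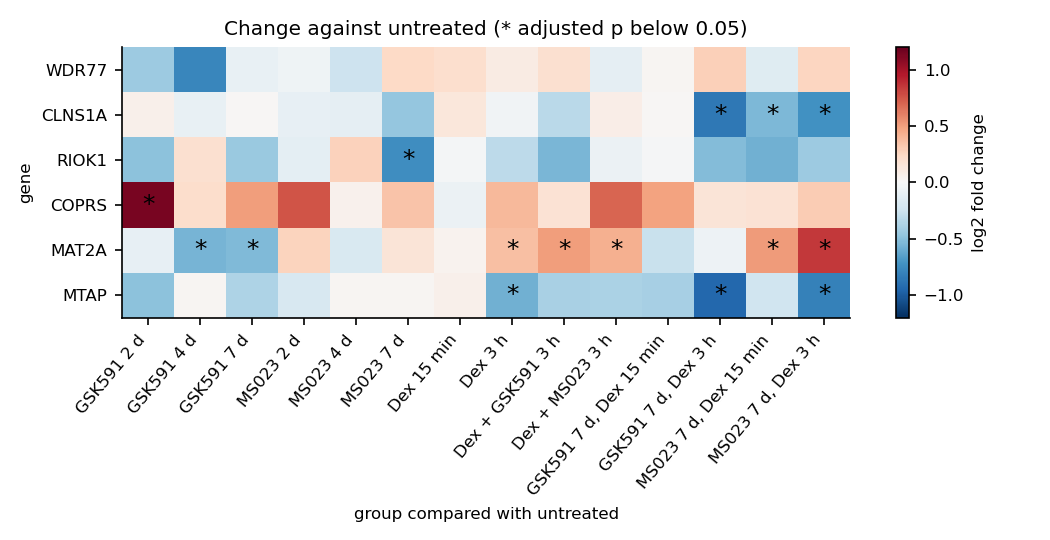
Log2 fold change of the 6 tested genes (rows) in each of 14 groups against untreated (columns), on a scale from blue (lower) to red (higher), with an asterisk at an adjusted p below 0.05. MAT2A has asterisks in 7 columns, CLNS1A and MTAP in 3, RIOK1 and COPRS in 1 and WDR77 in 0.

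MAT2A (plus strand, chr2:85539165-85545280) encodes the catalytic subunit of methionine adenosyltransferase in tissues outside the liver, and its transcription was lower in GSK591 from day 4. The untreated libraries had 127 and 130 CPM (128 ± 2.03, SD, n = 2). With GSK591 the libraries had 117 and 121 CPM at 2 days, 78.3 and 96.5 CPM at 4 days, and 85.2 and 92.3 CPM at 7 days. All 4 libraries of days 4 and 7 lay below both untreated ones. The change was -0.10 ± 0.101 (log2, SE) at 2 days (adjusted p = 0.629), -0.56 ± 0.101 at 4 days (adjusted p = 5.87e-05) and -0.53 ± 0.102 at 7 days (adjusted p = 0.00017). MAT2A at 4 days was also lower than at 2 days of GSK591, by -0.45 ± 0.102 (adjusted p = 0.00509). Without replicate 2 of 2 days or replicate 1 of 4 days, that difference between days was no longer called (-0.42 and -0.32, adjusted p = 0.0935 and 0.294). With total counts as the only scaling, the falls at 4 and 7 days were -0.14 and -0.56 and not called (adjusted p = 0.666 and 0.107), where the median of all genes moved by 0.415 and -0.0325, and the fall from 2 to 4 days was -0.33 (adjusted p = 0.65).

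In the fit of all groups on the TMM scale, MS023 did not move MAT2A past the threshold at any of its 3 times. Libraries had 155 and 154 CPM at 2 days, 108 and 119 CPM at 4 days and 141 and 143 CPM at 7 days, that is above, below and above both untreated libraries. The changes were 0.27 ± 0.1 (adjusted p = 0.0742), -0.18 ± 0.1 (adjusted p = 0.254) and 0.15 ± 0.0997 (adjusted p = 0.358). The value at 2 days passed in the fit of the compared groups (0.26, adjusted p = 0.0478). With total counts alone, where the median of all genes moved by 0.675, 0.741 and 1.02, the values were 0.94, 0.57 and 1.17 and called (adjusted p = 0.00033, 0.0201 and 4.36e-06). Within MS023, MAT2A fell from 2 to 4 days by -0.45 ± 0.0996 (adjusted p = 0.00417) and rose from 4 to 7 days by 0.32 ± 0.0993 (adjusted p = 0.0291). The fall was not called without replicate 1 of 2 days or of 4 days (adjusted p = 0.0653 and 0.132), and the rise was not called when any 1 of its 4 libraries was left out (adjusted p = 0.0778 to 0.278) or with no filter (adjusted p = 0.0681). With total counts alone neither was called (-0.38 and 0.60, adjusted p = 0.592 and 0.0768). Set against each other, GSK591 had less MAT2A than MS023 by -0.37 ± 0.101 at 2 days (adjusted p = 0.0263), -0.38 ± 0.101 at 4 days (adjusted p = 0.0133) and -0.68 ± 0.101 at 7 days (adjusted p = 2.89e-06). At 2 days the call was lost when any 1 of the 4 libraries was left out (adjusted p = 0.137 to 0.264), and at 4 days it was lost without replicate 1 of GSK591 or replicate 2 of MS023 (-0.24 and -0.31, adjusted p = 0.392 and 0.233). The difference at 7 days was called in each of its 4 such fits. With total counts alone all 3 differences were called in the same direction. On that scale the median of all genes itself moved by -0.388, -0.329 and -1.07 at 2, 4 and 7 days. Those 3 calls therefore do not separate MAT2A from the shift of all genes.

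**Figure D2:**
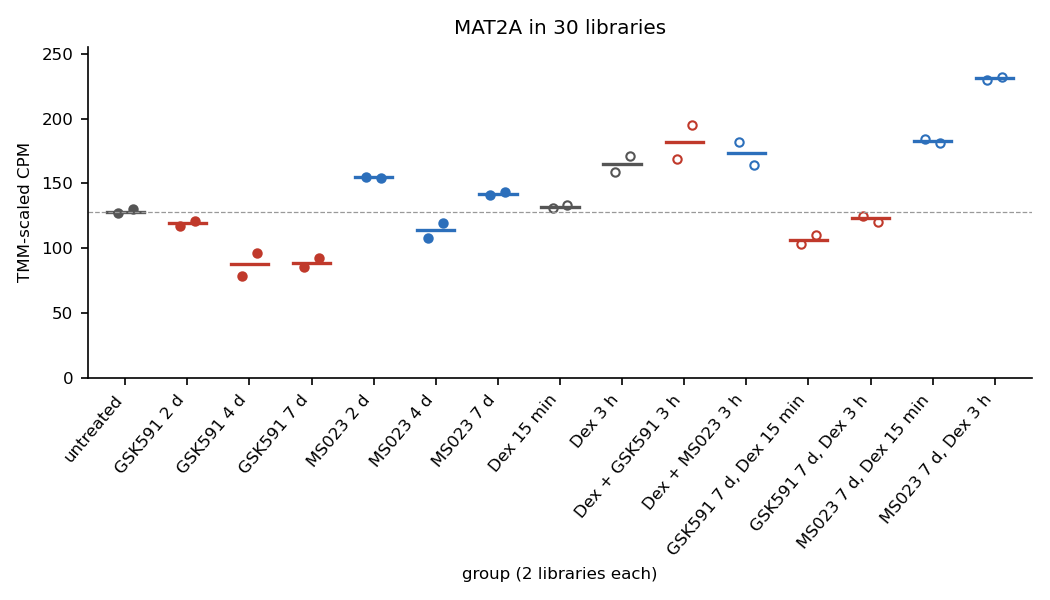
TMM-scaled CPM of MAT2A (vertical axis) in the 2 libraries (points) of each of 15 groups, with their mean (bars) and the untreated mean (dashed line); red is GSK591, blue MS023, grey neither, and open points received Dex. The libraries of 4 and 7 days of GSK591 lie between 78.3 and 96.5 CPM and those of 7 days of MS023 then 3 h of Dex at 230 and 232 CPM.

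Dex for 3 h went with more MAT2A transcription. Libraries had 159 and 171 CPM with Dex alone, 169 and 195 CPM with Dex and GSK591, and 182 and 164 CPM with Dex and MS023, all above both untreated libraries. The rises were 0.36 ± 0.1 (1.29-fold, adjusted p = 0.0106), 0.50 ± 0.1 (1.42-fold, adjusted p = 0.000235) and 0.43 ± 0.1 (1.35-fold, adjusted p = 0.00199), and share the same untreated libraries. That for Dex alone was not called without either untreated library or without replicate 2 of Dex (0.31 to 0.38, adjusted p = 0.0653 to 0.14), nor with total counts alone (0.54, adjusted p = 0.123). That for Dex with MS023 was not called in the fit of the compared groups (adjusted p = 0.117). At 15 min the libraries had 131 and 133 CPM (0.04 ± 0.1, adjusted p = 0.992). Either inhibitor, added for the same 3 h, was not shown to differ from Dex alone, at 0.14 ± 0.0995 for GSK591 (adjusted p = 0.939) and 0.06 ± 0.0996 for MS023 (adjusted p = 0.841). The 2 co-treatments differed by 0.08 ± 0.0993 (adjusted p = 0.808).

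After 7 days of GSK591, 3 h of Dex raised MAT2A from 85.2 and 92.3 CPM to 125 and 120 CPM, a rise of 0.47 ± 0.102 (adjusted p = 0.000939). This brought it to -0.06 ± 0.101 of untreated cells (adjusted p = 0.698) and left it -0.43 ± 0.101 below Dex alone (adjusted p = 0.00217; with total counts alone -0.41, adjusted p = 0.286). After 7 days of MS023 the same treatment raised it from 141 and 143 CPM to 230 and 232 CPM, by 0.70 ± 0.0988 (1.62-fold, adjusted p = 4.11e-07). These 2 libraries were the highest of all 30, 0.85 ± 0.0998 above untreated cells (1.8-fold, adjusted p = 2.96e-09) and 0.48 ± 0.0991 above Dex alone (adjusted p = 0.0006). The response to 3 h of Dex itself was not shown to differ from that of cells without inhibitor, by 0.11 ± 0.143 after GSK591 (adjusted p = 0.911) and 0.33 ± 0.14 after MS023 (adjusted p = 0.417).

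At 15 min of Dex after 7 days of MS023, MAT2A stood at 184 and 181 CPM, 0.36 ± 0.0988 above MS023 alone (adjusted p = 0.0339), a call lost when any 1 of the 4 libraries was left out (adjusted p = 0.18 to 0.236), with no filter (adjusted p = 0.202) and with total counts alone (0.22, adjusted p = 0.9). It was 0.51 ± 0.0997 above untreated cells (adjusted p = 0.000154) and 0.47 ± 0.0995 above Dex alone (adjusted p = 0.000724). After GSK591 it stood at 103 and 110 CPM, 0.26 ± 0.103 above GSK591 alone (adjusted p = 0.209) and -0.31 ± 0.101 below Dex alone (adjusted p = 0.0272), a call also lost when any 1 of its 4 libraries was left out (adjusted p = 0.0656 to 0.158), by DESeq2 (adjusted p = 0.0754) and in the fit of the compared groups (adjusted p = 0.11). The gap between the inhibitors was widest here, at -0.78 ± 0.101 with 15 min (adjusted p = 1.02e-07) and -0.91 ± 0.1 with 3 h of Dex (adjusted p = 2.83e-09). Of the 15 groups ordered by level, 7 of 14 neighbouring pairs overlapped in their libraries.

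MAT2A shares 558 of its 4487 exonic bases with GGCX, a gene on the opposite strand that encodes the vitamin K-dependent carboxylase. The strand setting of the counting is not given in the sources used here, so reads from the shared bases cannot be told apart. GGCX, with 41662 counts in all, moved by -0.49 at 4 days (adjusted p = 0.000956) and -0.69 at 7 days of GSK591 (adjusted p = 8.42e-06), by -0.03 at 7 days of MS023 (adjusted p = 0.873) and by 0.96 with Dex for 3 h after MS023 (adjusted p = 9.37e-10). Over the 15 group means it was also the gene whose log2 CPM was most like that of MAT2A (Pearson r = 0.950).

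CLNS1A (minus strand, chr11:77514936-77637805), which brings Sm proteins to PRMT5, was lower where 7 days of GSK591 were followed by 3 h of Dex, and where 7 days of MS023 were followed by 15 min or 3 h. The untreated libraries had 8.12 and 8.26 CPM (8.19 ± 0.101, SD, n = 2). After 7 days of GSK591 it was at 8.6 and 7.91 CPM (0.01 ± 0.199, adjusted p = 0.978), and Dex alone for 3 h gave 7.76 and 8.18 CPM (-0.04 ± 0.197, adjusted p = 0.94). GSK591 then 15 min of Dex left it at 8.06 and 8.37 CPM (0.01 ± 0.196, adjusted p = 0.987). With 3 h of Dex after GSK591 it was at 4.3 and 4.7 CPM, below all libraries of the untreated, GSK591, Dex and 15 min groups. The change was -0.86 ± 0.215 against untreated (0.55-fold, adjusted p = 0.00172), -0.88 ± 0.219 against GSK591 (adjusted p = 0.00451) and -0.82 ± 0.217 against Dex (adjusted p = 0.00667). The test of the difference of the Dex response itself, -0.84 ± 0.295, had an unadjusted p of 0.00672 and an adjusted p of 0.292. The call against GSK591 was lost without replicate 1 of either group (adjusted p = 0.0769 and 0.0624), and that against Dex without replicate 2 of Dex or replicate 1 of the combination (adjusted p = 0.0557 and 0.075). With total counts alone the 3 falls were -0.69, -0.68 and -0.82 and not called (adjusted p = 0.0996, 0.192 and 0.104).

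With MS023, CLNS1A was at 5.74 and 6.15 CPM at 7 days (-0.46 ± 0.193, adjusted p = 0.105), at 5.97 and 5.24 CPM with 15 min of Dex and at 5.49 and 4.35 CPM with 3 h. All 6 libraries lay below the untreated ones. Against untreated cells the fall was -0.54 ± 0.197 at 15 min (adjusted p = 0.0479) and -0.73 ± 0.198 at 3 h (adjusted p = 0.00487), and against Dex of the same time -0.69 ± 0.193 (adjusted p = 0.011) and -0.69 ± 0.201 (adjusted p = 0.0171). Dex for 3 h after MS023 moved it by -0.27 ± 0.197 from MS023 alone (adjusted p = 0.457). The call at 15 min against untreated was lost when any 1 of its 4 libraries was left out (adjusted p = 0.11 to 0.217), and by DESeq2 (adjusted p = 0.191), with DESeq2 size factors (adjusted p = 0.061), with no filter (adjusted p = 0.0878) and without mitochondrial genes (adjusted p = 0.0515). The call at 3 h was lost without replicate 2 of the combination (-0.57, adjusted p = 0.117). Against Dex, the call at 15 min was lost without replicate 2 of either group (adjusted p = 0.093 to 0.237), and that at 3 h without either Dex library or replicate 2 of the combination (adjusted p = 0.0711 to 0.223). DESeq2 called neither (adjusted p = 0.0652 and 0.0785). With total counts as the only scaling, 3 of these 4 differences turned positive and were not called (0.33, 0.28 and 0.15, adjusted p = 0.292, 0.379 and 0.649), and the remaining one, at 15 min against Dex, was -0.13 (adjusted p = 0.728).

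RIOK1 (plus strand, chr6:7389496-7418037), an atypical kinase of ribosome maturation that competes with CLNS1A for PRMT5, was lower at 7 days of MS023. Libraries had 6.67 and 5.74 CPM untreated, 7.75 and 7.26 CPM at 4 days of MS023, and 4.25 and 3.11 CPM at 7 days, the lowest group of 15. The fall was -0.75 ± 0.249 from untreated (0.595-fold, adjusted p = 0.0357) and -1.02 ± 0.232 from 4 days (0.492-fold, adjusted p = 0.00236). The former was lost without either untreated library or replicate 2 of 7 days (adjusted p = 0.081 to 0.31), and the latter without replicate 2 of 7 days (-0.82, adjusted p = 0.109). The former was also lost by DESeq2 (adjusted p = 0.137) and with no filter (adjusted p = 0.0538). With total counts alone, 7 days of MS023 lay 0.28 above untreated (adjusted p = 0.415) and -0.75 from 4 days (adjusted p = 0.13). With GSK591 the libraries were at 4.3 and 4.48 CPM at 2 days, 8.16 and 5.92 CPM at 4 days, and 4.65 and 4.42 CPM at 7 days. The changes from untreated at 2 and 7 days were -0.49 ± 0.264 and -0.45 ± 0.263 (adjusted p = 0.303 and 0.288), and that from 4 to 7 days -0.63 ± 0.256 (adjusted p = 0.123; with total counts alone -1.08, adjusted p = 0.0134). CAGE1, on the opposite strand, shares 248 of the 3237 exonic bases of RIOK1 and had 723 counts in all.

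COPRS (minus strand, chr17:31851864-31859337), which couples PRMT5 to histones, was higher at 2 days of GSK591. Libraries had 15.6 and 13.3 CPM untreated, and 38.7 and 25.2 CPM at 2 days, a rise of 1.14 ± 0.32 (2.2-fold, adjusted p = 0.0487). The 2 replicates spread widely (31.9 ± 9.58 CPM, SD), and the call was lost when any 1 of the 4 libraries was left out (0.81 to 1.42, adjusted p = 0.0657 to 0.333), with no filter (adjusted p = 0.0918) and with total counts alone (1.42, adjusted p = 0.0772). Libraries had 24.9 and 23.7 CPM at 2 days of MS023 (0.75 ± 0.319, adjusted p = 0.157), and 17.8 and 15.6 CPM at 4 days of GSK591 (0.21 ± 0.331, adjusted p = 0.72). GSK591 and MS023 at 2 days differed by 0.39 ± 0.3 (adjusted p = 0.661), and 4 days of GSK591 lay -0.93 ± 0.312 from 2 days (adjusted p = 0.134). In the fit of the compared groups, 2 values passed that did not in the fit of all groups, MS023 at 2 days (0.74, adjusted p = 1.32e-05; with total counts alone 1.43, adjusted p = 0.0165) and the step from 2 to 4 days of GSK591 (-0.93, adjusted p = 0.00013), which DESeq2 also called (adjusted p = 0.0292).

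WDR77 (minus strand, chr1:111439890-111449376), the constant partner of PRMT5, passed no test. Its levels ran from 0.864 to 3.02 CPM over 30 libraries, and in order of level all 14 neighbouring groups overlapped. By edgeR, 0 of 38 comparisons were called, with 0 at an unadjusted p below 0.05, and DESeq2 called 0. At 4 days of GSK591, where it was lowest, libraries had 0.864 and 1.6 CPM against 2.45 and 1.81 CPM untreated (-0.78 ± 0.392, adjusted p = 0.174). With 9 to 36 counts per library and standard errors of 0.308 to 0.518 over the 38 comparisons, a difference of that size did not pass the test. Of its exonic bases 36.5% also belong to AL390195.1 or ATP5PB. PRMT5 had 7.9 and 8.77 CPM untreated, 7.56 and 8.98 CPM at 7 days of GSK591 (-0.02 ± 0.199, adjusted p = 0.97) and 7.79 and 7.96 CPM at 7 days of MS023 (-0.08 ± 0.187, adjusted p = 0.82; with total counts alone 0.93, adjusted p = 0.00205). With 3 h of Dex it fell to 5.31 and 4.64 CPM (-0.74 ± 0.211, adjusted p = 0.0145), a call lost without replicate 2 of untreated cells or either Dex library (adjusted p = 0.0513 to 0.154), by DESeq2 (adjusted p = 0.0673) and with total counts alone (-0.59, adjusted p = 0.282). In the authors' deposited tables it is -0.19 there (adjusted p = 0.555). After 7 days of MS023 and 3 h of Dex it was 0.61 ± 0.205 above Dex alone (adjusted p = 0.0415), a call lost when any 1 of the 4 libraries was left out (adjusted p = 0.104 to 0.271) and that DESeq2 did not make (adjusted p = 0.136). PRMT5-AS1 on the opposite strand shares 938 of its exonic bases.

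**Figure D3:**
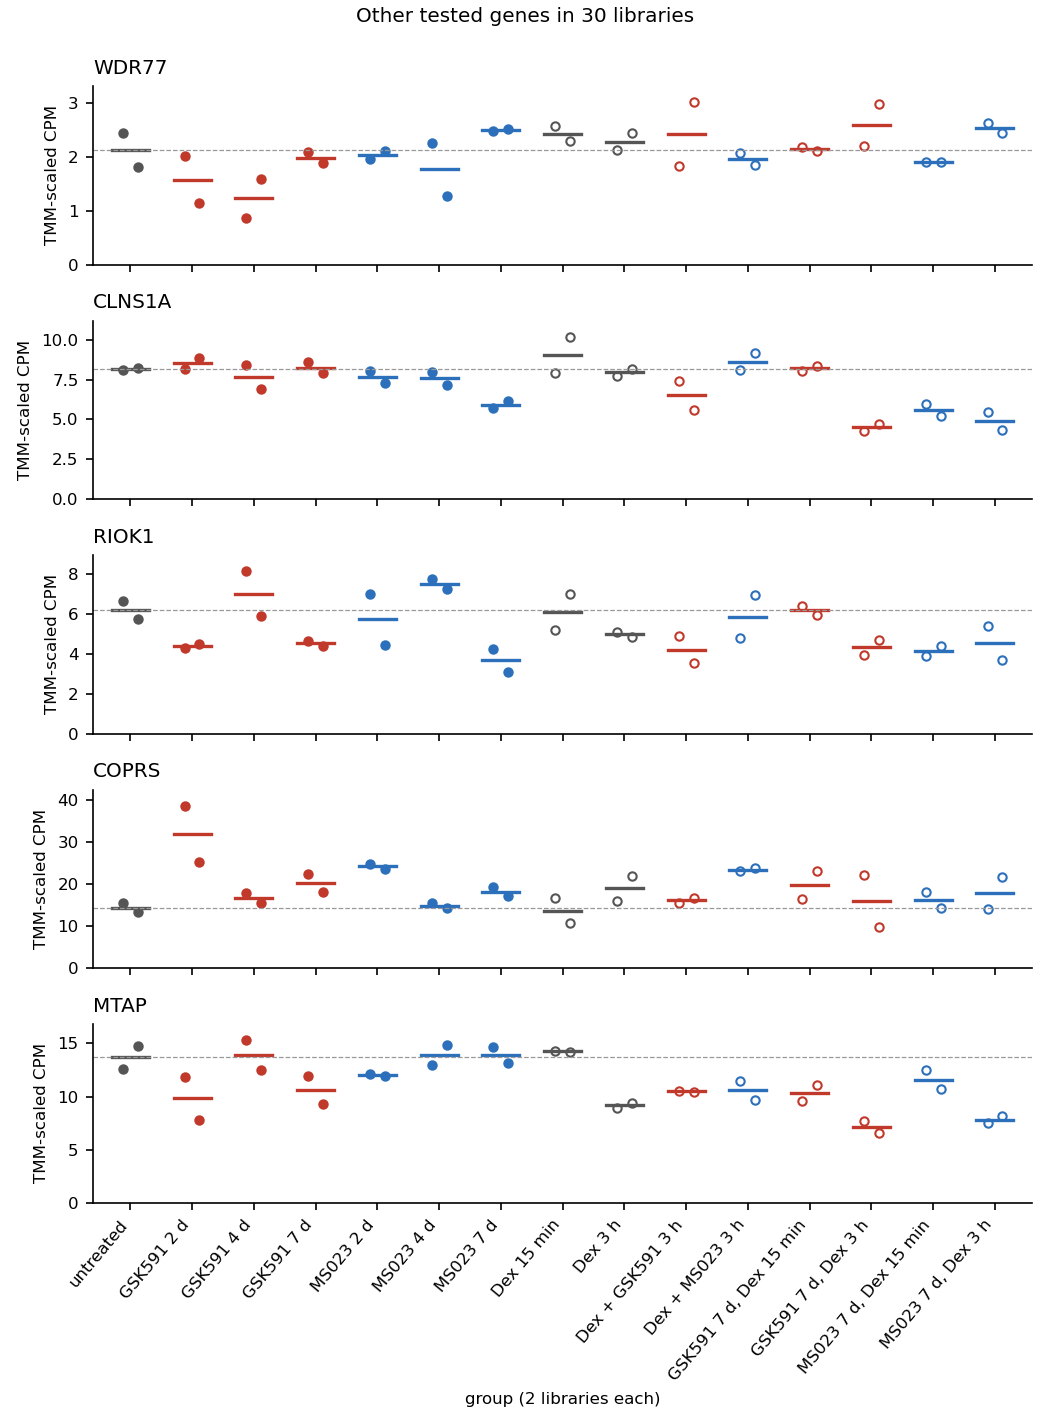
TMM-scaled CPM (vertical axes, each from 0) of WDR77, CLNS1A, RIOK1, COPRS and MTAP in the 2 libraries (points) of each of 15 groups, with their mean (bars) and the untreated mean (dashed line); red is GSK591, blue MS023, grey neither, and open points received Dex. CLNS1A is at 4.3 and 4.7 CPM and MTAP at 7.72 and 6.53 CPM after 7 days of GSK591 then 3 h of Dex, the lowest groups of these 2 genes.

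MTAP (plus strand, chr9:21802543-21937651), which splits methylthioadenosine and returns its sulphur to methionine, was lower after 3 h of Dex. The untreated libraries had 12.6 and 14.8 CPM (13.7 ± 1.59, SD, n = 2), and 15 min of Dex left 14.3 and 14.2 CPM. At 3 h it was at 8.93 and 9.4 CPM, below all 4 of these, a fall of -0.58 ± 0.18 (0.668-fold, adjusted p = 0.0263). The call was lost without replicate 2 of untreated cells or either Dex library (-0.62 to -0.45, adjusted p = 0.101 to 0.274), by DESeq2 (adjusted p = 0.0944) and with total counts alone (-0.42, adjusted p = 0.447). With GSK591 or MS023 added for the 3 h, libraries had 10.5 and 10.4 CPM (-0.39 ± 0.174, adjusted p = 0.15) or 11.5 and 9.69 CPM (-0.38 ± 0.174, adjusted p = 0.163).

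Dex for 3 h after 7 days of an inhibitor gave the 2 lowest group means of MTAP. After GSK591 the libraries went from 11.9 and 9.25 CPM to 7.72 and 6.53 CPM, -0.94 ± 0.186 against untreated (0.521-fold, adjusted p = 9.78e-05) and -0.57 ± 0.196 against GSK591 alone (adjusted p = 0.0532; 0.049 without mitochondrial and ribosomal RNA genes). After MS023 they went from 14.7 and 13.2 CPM to 7.54 and 8.12 CPM, -0.81 ± 0.173 against untreated (0.571-fold, adjusted p = 0.00039) and -0.83 ± 0.167 against MS023 alone (adjusted p = 0.000266). With total counts alone as the scale, MTAP after MS023 and Dex lay 0.20 above untreated (adjusted p = 0.499). The inhibitors alone did not move it past the threshold, at -0.49 ± 0.181 for 2 days of GSK591 (adjusted p = 0.0965), -0.37 ± 0.179 for 7 days (adjusted p = 0.174) and 0.02 ± 0.163 for 7 days of MS023 (adjusted p = 0.953; with total counts alone 1.04, adjusted p = 0.000357). The Dex response after MS023 differed from that without by -0.25 ± 0.246 (adjusted p = 0.821).

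On 9p, MTAP had reads in all 30 libraries while its neighbours CDKN2A and CDKN2B had almost none. MTAP summed to 3577 counts over 14617 exonic bases, or 245 counts per exonic kilobase, more than 45.9% of 19969 coding genes. CDKN2A (minus strand, chr9:21967753-21995301), which encodes p16INK4A and p14ARF, summed to 17 counts, in 10 libraries. CDKN2B (minus strand, chr9:22002903-22009363), which encodes p15INK4B, summed to 12 counts, in 6 libraries. No library held more than 3 counts of either, or more than 0.294 and 0.306 CPM. In a library with none, a count of 0 allows up to 3 counts, that is 0.212 to 0.41 CPM by depth. This limit covers counting error only. No treatment comparison of these 2 genes was made, and their values in untreated cells were 1 and 0 counts for CDKN2A and 0 and 0 for CDKN2B.

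Genes with few counts lay between better covered ones. Between the start of MTAP and DMRTA1, a gene 644.3 kb on with 1855 counts, the annotation lists 14 further genes. TUBB8P1, a tubulin pseudogene that lies 9.078 kb into MTAP on the other strand, had 555 counts, and reads of near-identical tubulin genes may be split there. From AL359922.2, 56.37 kb after the MTAP start, to RF01909, 315.1 kb after it, no gene had more than 35 counts, the value of CDKN2B-AS1, a long antisense RNA of the locus. That stretch begins inside MTAP, which spans 135109 bases. AL359922.2, AL359922.3 and ERVFRD-3, which lie within MTAP, had 9, 5 and 3 counts. AL157937.1, at 401.4 kb, had 230 counts. Similar values were found nearby: of 16 interferon genes within 5 Mb, 14 did not pass the filter, and the median of the 16 was 3.95 counts per exonic kilobase, against 3.93 for CDKN2A and 2.96 for CDKN2B. Counts of RNA do not show whether DNA is present. Gene totals do not show where within MTAP its reads lie, or whether the whole of MTAP is transcribed. The MTAP pseudogenes MTAPP1 and MTAPP2 had 45 and 107 counts, so part of the MTAP reads could belong to a copy.

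**Figure D4:**
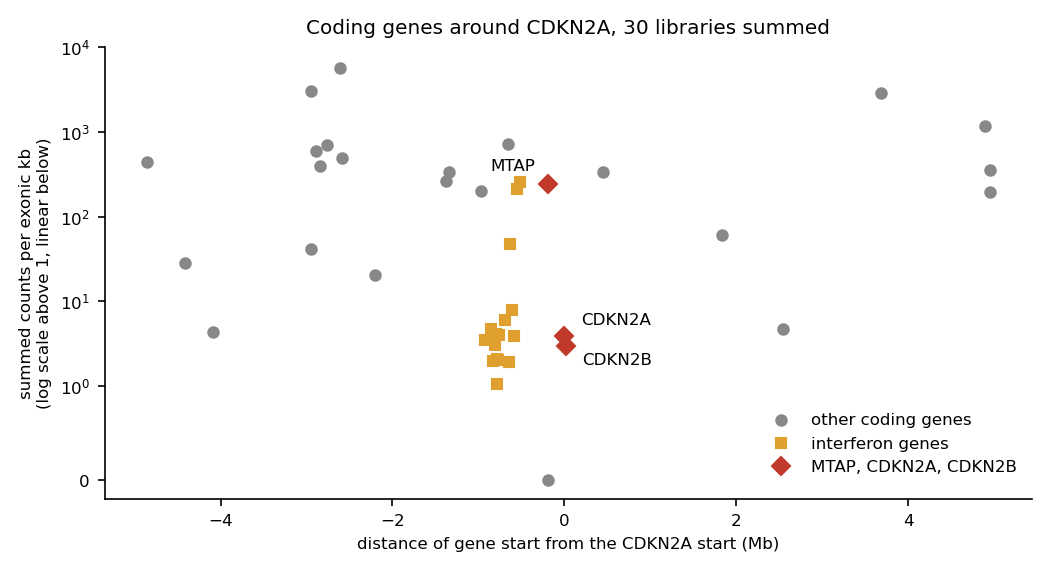
Counts per exonic kilobase summed over 30 libraries (vertical axis, log scale above 1 and linear below) of 42 coding genes against the distance of their start from that of CDKN2A in Mb (horizontal axis). MTAP stands at 245, CDKN2A and CDKN2B at 3.93 and 2.96, and most interferon genes (squares) beside them at similar values.

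The authors' deposited tables, which compare 14 groups with untreated cells, rest on another counting and list 5 of the 6 tested genes. For MAT2A they call 9 comparisons, including the 7 called here, and each of these 7 has the same direction in both. The other 2, not called here, are 2 days of MS023 (0.26, adjusted p = 0.0469) and 7 days of GSK591 then 15 min of Dex (-0.32, adjusted p = 0.0158). The authors' deposited tables give MAT2A -0.59 and -0.70 at 4 and 7 days of GSK591 and 1.00 for 7 days of MS023 then 3 h of Dex. For MTAP the authors' deposited tables call 12 of 14 comparisons, all lower, against 3 here. They give -0.94 for 3 h of Dex (adjusted p = 2.69e-17), -1.48 after 7 days of GSK591 and -1.31 after 7 days of MS023. At 7 days of MS023 alone MTAP was at 0.02 here and at -0.73 in the authors' deposited tables. For CLNS1A the authors' deposited tables call 2 comparisons, both with 3 h of Dex after 7 days of inhibitor (-0.49 for GSK591, adjusted p = 0.0105, and -0.51 for MS023, adjusted p = 0.00569), and both were called here.

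COPRS had opposite signs in the 2 sources. From the deposited counts it lay above untreated in 13 of 14 comparisons, with 1 called. In the authors' deposited tables it lies below in 14 of 14, with 8 called. Only at 15 min of Dex were the signs equal (-0.07 here and -0.08 there). At 2 days of GSK591 the values were 1.14 here and -0.13 in the authors' deposited tables (adjusted p = 0.495), and at 4 days 0.21 here and -1.12 there (adjusted p = 0.00013). RIOK1 at 7 days of MS023 was -0.75 here and 0.03 in the authors' deposited tables (adjusted p = 0.921). CDKN2A has a mean of 0.863 normalised counts in the authors' deposited tables and no adjusted p.

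**Figure D5:**
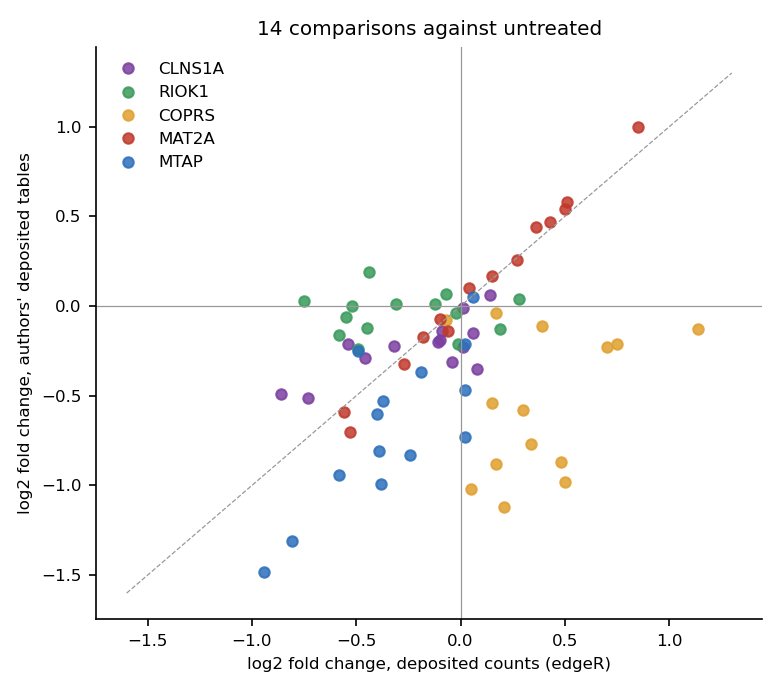
Log2 fold change against untreated from the deposited counts (horizontal axis) and in the authors' deposited tables (vertical axis) for 14 groups, coloured by gene, with a dashed line of equal values. MAT2A lies near the line, MTAP mostly below it, and COPRS below 0 on the vertical axis in 14 of 14 groups.

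The share of all genes called, against which the counts of the following lists are to be read, was 13.2% at 7 days of GSK591, 13.6% at 7 days of MS023 and 10.5% at 3 h of Dex. Around MAT2A, the methionine cycle had 9 of 14 listed genes tested, and at 7 days of GSK591 0 rose and 2 fell (median -0.24, against -0.0049 for all genes). The 2 were MAT2A and MTR, which remakes methionine from homocysteine (-0.49, adjusted p = 0.0117). At 7 days of MS023 0 rose and 2 fell, MTR (-0.51) and MAT2B, the regulatory subunit that pairs with MAT2A (-0.71). With 3 h of Dex MAT2A alone rose and 0 fell. Of 10 folate one-carbon genes, 3 fell at 7 days of GSK591, with 0 higher (13.2% of all genes called). They were TYMS, which makes thymidylate (-1.09 at 7 days), MTHFD1 (-0.66) and SHMT1 (-0.54), which handle folate-bound carbon. At 7 days of MS023 TYMS (-0.62) and SHMT1 (-0.41) fell and MTHFD2L rose (1.05). Of 5 genes of methionine import and MAT2A splicing, SLC38A2, an amino acid transporter, was called higher in all 6 comparisons of an inhibitor with untreated (0.34 to 0.79). It was also called with Dex and GSK591 (0.68) or MS023 (0.51) for 3 h, and with Dex after 7 days of inhibitor (0.51 to 0.78). Dex alone gave 0.37 at 15 min and 0.28 at 3 h, not called. All these values share the same untreated libraries. At 7 days of GSK591 SLC43A2, another amino acid transporter, also rose (0.54, adjusted p = 0.0135), and SLC3A2, the heavy chain of an amino acid exchanger, fell (-0.52).

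In methionine salvage, to which MTAP belongs, 0 of 7 genes were called at 7 days of either inhibitor, and at 3 h of Dex KYAT1, a transaminase, rose (1.00) and MTAP fell. Of 10 polyamine genes, 1 rose and 1 fell at 7 days of GSK591, and 2 rose and 1 fell at 7 days of MS023 (13.2% and 13.6% of all genes called), where ODC1, the first enzyme of polyamine synthesis, was at 0.45 and SMOX, a spermine oxidase, at -0.92. SAT1, which acetylates polyamines for export, was higher in both (0.66 and 1.06) and at 3 h of Dex (0.64). It was called higher in every group compared with untreated, also at 15 min of Dex (0.45), and these share the same untreated libraries. AMD1, whose product leads to methylthioadenosine, fell at 7 days of GSK591 (-0.53) and was at -0.12 at 7 days of MS023. Of 10 tested cell-cycle inhibitors, cyclins and kinases other than CDKN2A and CDKN2B, 2 rose at 7 days of GSK591 (13.2% of all genes called) and 5 of MS023 (13.6%), with 0 lower. The 5 were CDKN1A, CDKN1C, CDKN1B (0.42), CDKN2C (0.49) and the cyclin CCND3 (0.47). CDKN1A (p21) had 1.41 and 0.64, and CDKN1C (p57) 2.10 and 2.67. At 3 h of Dex 2 rose, CDKN1A (1.53) and CDKN1C (3.11), and 2 fell, CDK6 (-0.66) and CCND3 (-0.60), with 10.5% of all genes called. CDKN1A was called higher already at 15 min of Dex (1.00). Of 21 tested neighbours of the locus within 5 Mb, 4 rose and 3 fell at 7 days of GSK591 (13.2% of all genes called), and 3 rose and 1 fell at 7 days of MS023 (13.6%). DMRTA1, the nearest on the far side of CDKN2B, rose by 0.73 in GSK591 and was at -0.02 in MS023, and HAUS6, a spindle protein, fell in both (-1.04 and -0.53). The 2 interferon genes that passed the filter were higher in GSK591, IFNE by 2.07 ± 0.608 and IFNA1 by 2.55 ± 0.705, and IFNE in MS023 by 2.21 ± 0.561. They had only 381 and 185 counts over all 30 libraries, IFNA1 in 25 of them. Genes this low can pass the filter through the groups where they are high, so these values are a description only. TUSC1 rose in both (0.41 and 0.76) and MLLT3 in MS023 (0.68), while CNTLN (-0.58) and RPS6 (-0.43) fell in GSK591.

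By likeness of log2 CPM over 15 group means, with no test and with libraries shared between genes, the nearest of 11088 genes to MAT2A after GGCX were LOC93622 (r = 0.929) and VSIG10L (r = 0.928). CLNS1A was most like AGPS (r = 0.912), DDX54 (r = 0.897) and MCFD2 (r = 0.895). MTAP was most like KDM3B (r = 0.891), MALL (r = 0.886) and FERMT1 (r = 0.879). RIOK1 was most like MUC5AC (r = 0.885), GPBP1L1 (r = 0.824) and PTTG1IP (r = 0.820). COPRS was most like UBTD2 (r = 0.885), LINC01578 (r = 0.857) and ZNRF1 (r = 0.848), and WDR77 most like SFN (r = 0.876), NDUFB2 (r = 0.860) and ZNF431 (r = 0.859). Among the members, r ran from -0.48 (WDR77 and RIOK1) to 0.58 (CLNS1A and RIOK1), and MAT2A and MTAP had -0.32.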

How the data were processed

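PRO-seq counts of 15 groups of 2 libraries were used. The authors deposited whole-number counts per gene, made with featureCounts 2.0.1 of Subread on hg38, per the submitters' processing notes; aligner, feature type and strand are not given in the sources used here. The authors' 14 comparison tables hold mean signal (normalised counts), log2 fold changes and p-values, in columns named as DESeq2 names them, per the file headers. All 58780 identifiers were found in GENCODE 29, which gave positions and exonic lengths.

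Genes were kept by filterByExpr (minimum count 10, minimum total 15). Library sizes were recomputed after this filter, a choice made after the calls under both options had been seen. Counts were tested with edgeR 4.0.16 (R 4.3.3, limma 3.58.1; quasi-likelihood, robust, TMM), all groups in 1 fit without covariate, and 38 comparisons adjusted by Benjamini-Hochberg at 0.05. Each SE was derived from the fold change and its F statistic. The procedure was tested on simulated data. No molecular identifiers are mentioned, so limits cover counting error only. Groups of 2 libraries cannot pass an exact permutation test at 0.05.

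Members, lists and motifs were chosen with earlier results of these data known. All members are named; for each list up to 4 called genes with the largest change at 7 days, and for each tested member the 3 most alike genes whose mean reached 5 CPM (Pearson r of group-mean log2 CPM). Other called genes of small lists were named after their values were seen. Alternatives were DESeq2 size factors, total counts, no filter, DESeq2 1.42.0, fitting only the groups compared, a replicate block, dropping mitochondrial and ribosomal RNA genes, and leaving out each library. A planned motif search in adaptor proteins was not run. The folate list at 4 days of GSK591 is not reported here.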

Additional observations from a re-analysis of the deposited data

Results flagged for a closer look

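For MAT2A and RIOK1 the level under an inhibitor differed between times, by the direct test of one time against the other. No vehicle group of 2, 4 or 7 days exists, so time in culture and a changing effect of the inhibitor cannot be told apart. MAT2A at 4 days against 2 days was -0.45 in GSK591 (117 and 121 CPM to 78.3 and 96.5 CPM) and -0.45 in MS023 (155 and 154 CPM to 108 and 119 CPM). It then differed by 0.32 from 4 to 7 days of MS023 (141 and 143 CPM at 7 days). RIOK1 differed by -1.02 from 4 to 7 days of MS023 (7.75 and 7.26 CPM to 4.25 and 3.11 CPM). All 4 were called in the fit of all groups, and each was lost without at least 1 library.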

How the results depend on the processing

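Alternatives for single genes were run for the 38 calls (36 of members, 2 of PRMT5), which were selected for being called, and for 35 uncalled values, chosen after they were seen. Of the 38 calls, 37 held with DESeq2 size factors, 38 with the replicate block, 37 without mitochondrial and ribosomal RNA genes, 35 in the fit of the compared groups, 32 with no filter, 30 by DESeq2 and 17 with total counts. The fit with library sizes from before the filter, added after seeing the data, kept 38 calls. Of the 38, 20 were lost in at least 1 fit that left out a library. Where a value was lost or turned, the cause was not tested unless the scale itself moved all genes.

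Member calls over an inhibitor alone against untreated numbered 4. They were 10 with total counts, 2 with no filter and 7 in the fit of the compared groups. Of all genes, total counts called 984, 4631 and 1135 at 2, 4 and 7 days of GSK591 (from 1292, 3941 and 3026). For MS023 they called 9228, 11285 and 16196 (from 2381, 3247 and 3127). No filter called 1206, 3499 and 2741 for GSK591 and 2143, 2939 and 2795 for MS023. The fit of the compared groups called 2277, 5341 and 3952 for GSK591 and 3952, 4759 and 4371 for MS023. Member calls of an inhibitor against none under Dex numbered 7, and 4 by DESeq2. There DESeq2 called 0 and 54 of all genes for GSK591 and MS023 given with Dex (from 0 and 45). After 7 days, at 15 min and 3 h of Dex, it called 2113 and 1815 for GSK591 (from 3514 and 3107). For MS023 it called 1780 and 1354 (from 3504 and 2645). With total counts, all-gene calls between inhibitors at 2, 4 and 7 days went from 617, 1382 and 2149 to 1108, 1358 and 16029. They went from 11 to 0 with 3 h of Dex. After 7 days then Dex for 15 min and 3 h they went from 3581 and 2550 to 13002 and 12750. For Dex after GSK591 they went from 480 and 2258 to 72 and 1363, and after MS023 from 474 and 2543 to 71 and 1007. Over time they went from 778 and 1901 to 73 and 3663 in GSK591, and from 1126 and 2073 to 79 and 1050 in MS023. Member calls went from 5 to 3 for Dex after inhibitor, 5 to 12 for GSK591 against MS023 and 4 to 2 over time. Leaving out 1 library gave 2 to 4 calls for an inhibitor alone, 8 to 12 for Dex against untreated, 5 to 7 under Dex, 4 to 6 for Dex after inhibitor, 4 to 6 for GSK591 against MS023, 2 to 5 over time and 0 for the difference of responses. The lowest, 2, came without untreated replicate 1 or 2 or MS023 7 days replicate 2, and over time without MS023 4 days replicate 1 or 7 days replicate 2.

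With total counts as the only scaling these turned sign. Against untreated, MAT2A had 0.19 (GSK591 2 days), 0.57 (MS023 4 days, adjusted p = 0.0201) and 0.12 (GSK591 7 days, Dex 3 h); CLNS1A had -0.01 (GSK591 7 days), 0.56 (MS023 7 days), 0.13 (Dex 3 h), 0.33 and 0.28 (MS023 7 days, Dex 15 min and 3 h). RIOK1 had 0.28 (MS023 7 days) and 0.30 (then Dex 15 min), MTAP 0.10 (Dex with MS023) and 0.20 (MS023 7 days, Dex 3 h), and PRMT5 0.93 (MS023 7 days, adjusted p = 0.00205). CLNS1A after MS023 and 3 h of Dex had 0.15 against Dex, COPRS -0.02 between inhibitors at 2 days, and MAT2A -0.12 between co-treatments. Near 0, CLNS1A at GSK591 7 days had -0.01 with no filter, and PRMT5 there had 0.01 with DESeq2 size factors and 0.01 by DESeq2. Uncalled values that crossed 0 when a library was left out were CLNS1A (-0.06 to 0.07; -0.00 without untreated replicate 1) and PRMT5 (-0.14 to 0.10; 0.06 without untreated replicate 2) at GSK591 7 days, MTAP at MS023 7 days (-0.09 to 0.15; -0.06 without MS023 replicate 1), CLNS1A at Dex 3 h (-0.08 to 0.00), MAT2A for MS023 with Dex against Dex (-0.02 to 0.14) and between co-treatments (-0.03 to 0.18).

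No pairing by replicate number was seen across the groups as a whole. Over 105 pairs of groups the correlation of replicate deviations had a median of 0.0214 (-0.451 to 0.487), with 22 over 0.1. A median over all pairs cannot show whether some groups were paired. The replicate block kept all 38 calls, and the calls of the 7 kinds of comparison stayed within 1.5 times. Using the longest transcript as length kept 27 of 28 pairwise orders of level. Of the 18 most alike genes, 7 remained by Spearman rho. Raw counts of 9 to 36 per library limit WDR77, whose standard errors were 0.308 to 0.518; those of COPRS were 0.3 to 0.469 with 85 to 292 counts.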
